A study of Mus musculus with 18 samples.

Results

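The 10 genes described here are genes of mature osteoblasts and osteocytes, namely Bglap, Bglap2, Bglap3, Ibsp, Dmp1, Ifitm5, Phex, Sost, Mepe and Panx3. They were chosen by symbol, with no measured value in the rule, and are 10 of the 24421 gene symbols in the count tables. RNA was sequenced from mesenchymal stromal cells (MSCs) of mouse bone marrow (BM) in 6 groups of 3 libraries each, to compare cells with and without POT1a, a subunit of the shelterin complex that protects telomeres. For culture, marrow cells of femurs and tibiae from C57BL/6 mice aged 4 to 6 months, Pot1a wild/wild or flox/flox and all with a flox-stop-flox tdTomato reporter, were grown and sorted as CD51+ PDGFRα+ cells. Both genotypes received vesicles with Cre recombinase (10 µL per well, 12 h). The tdTomato+ cells were sorted again 48 h later and collected at week 1 or week 4, as groups named wt/wt and Δ/Δ in the sample titles. The other 6 libraries are of tdTomato+ BM cells sorted from C57BL/6 mice aged 2 weeks that carried NG2-cre and loxp-tdTomato, with titles that read wt/Δ and Δ/Δ. The genotype label of all 6 reads fl/fl, so these groups follow the titles, and no group of sorted cells is free of Cre. NG2-cre acts in pericytes and other NG2+ cells and not in MSCs alone, the cultures were of cells selected for tdTomato, and the labels name MesenCult expansion medium for the start of the cultures and no medium that induces bone formation.

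Osteoblasts secrete and mineralise bone matrix, and some become embedded in it as osteocytes. Early in this course cells express collagen and alkaline phosphatase, and later they express bone sialoprotein and osteocalcin, whereas osteocytes express the phosphate regulators Dmp1, Phex and Mepe and the Wnt inhibitor sclerostin. MSCs of the marrow are a source of osteoblasts, which is why these genes are read as marks of late osteogenic differentiation.

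Bglap, Bglap2 and Bglap3 encode osteocalcin or its close relative, a small protein that binds calcium and hydroxyapatite once carboxylated, and lie side by side on chromosome 3, on the minus strand of GRCm38 at chr3:88383501-88384464, chr3:88377736-88378699 and chr3:88368616-88372743. Their coding sequences in GENCODE M21 have the same length of 288 bases. Bglap and Bglap2 differ at 4 of these bases (98.6% identity), Bglap and Bglap3 at 13 (95.5%), and Bglap2 and Bglap3 at 9 (96.9%). The stretch from coding base 184 to 273 is shown because differing positions are dense in it. It holds 7 of the 13 coding positions where the 3 genes are not all alike, printed in capitals:
Bglap: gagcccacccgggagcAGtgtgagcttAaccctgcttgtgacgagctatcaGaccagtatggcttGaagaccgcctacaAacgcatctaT
Bglap2: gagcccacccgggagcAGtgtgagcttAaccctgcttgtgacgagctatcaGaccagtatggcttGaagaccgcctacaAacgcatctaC
Bglap3: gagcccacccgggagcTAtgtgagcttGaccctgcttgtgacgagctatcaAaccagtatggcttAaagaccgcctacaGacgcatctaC
In these lines Bglap and Bglap2 part at the last base alone. Of all windows of 75 bases in the annotated transcripts, 272 of 544 in Bglap and 291 of 397 in Bglap2 also occur in another osteocalcin gene, against 90 of 2770 in Bglap3. How reads that match several genes were counted is not given in the sources used here, so the split among the 3 genes is uncertain, and their sum is given beside them. Of the other members, Ifitm5 shares 156 of 691 windows with Gm45717, a gene model on the same strand, Phex shares 2 of 6217 with another gene, and Ibsp, Dmp1, Mepe, Panx3 and Sost share none.

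RefSeq start sites with the 250 bases before them were at hand for 8 of the 10 members (GRCm38.p6), in 11 windows, and not for Bglap2 and Panx3. The windows were searched on both strands for AACCACA, a binding site of RUNX2, the master regulator of the osteoblast lineage, for TTACATCA, the core of the OSE1 element known from osteocalcin, and for the TATA box TATAAA. Of 32851 promoter windows of the same length, 4.40% held the first, 0.965% the second and 12.4% the third. AACCACA was found in 1 of the 11 windows, at Dmp1. Only exact letters were searched, so variants that differ in 1 base, such as taccaca in the Bglap window, were not counted. The search thus does not show that the other windows lack a RUNX2 site. The windows of Bglap (minus strand), Dmp1 and Ibsp (plus strand) are printed because they hold matches at the members with the highest levels, with each match in capitals:
Bglap chr3:88384467-88384716: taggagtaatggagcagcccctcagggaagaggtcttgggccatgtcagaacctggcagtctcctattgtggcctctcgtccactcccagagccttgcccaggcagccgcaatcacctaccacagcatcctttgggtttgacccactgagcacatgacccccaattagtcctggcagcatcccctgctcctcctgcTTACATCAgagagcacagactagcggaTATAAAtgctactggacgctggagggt
Dmp1 chr5:104202367-104202616: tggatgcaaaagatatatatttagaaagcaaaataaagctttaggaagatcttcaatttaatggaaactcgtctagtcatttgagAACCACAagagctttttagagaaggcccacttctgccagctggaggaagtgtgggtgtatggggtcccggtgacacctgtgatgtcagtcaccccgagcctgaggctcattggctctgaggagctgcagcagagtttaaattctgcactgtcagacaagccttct
Ibsp chr5:104299037-104299286: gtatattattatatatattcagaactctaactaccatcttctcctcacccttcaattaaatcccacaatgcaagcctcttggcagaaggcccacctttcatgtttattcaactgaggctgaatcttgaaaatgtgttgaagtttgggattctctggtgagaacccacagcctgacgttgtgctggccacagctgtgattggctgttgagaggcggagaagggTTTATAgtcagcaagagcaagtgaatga
Bglap holds the OSE1 core 54 to 47 bases before its start and a TATA box 27 to 22 bases before it. Dmp1 holds the RUNX site 165 to 159 bases before its start, and Ibsp holds the TATA box letters on the other strand, 28 to 23 bases before its start. Mepe, not printed, holds those letters too, 173 to 168 bases before its start. These are matches of letters and not measured binding.

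Cultured libraries held 12807832 to 90717232 counts and sorted libraries 28918757 to 49992698. Pot1a, the targeted gene, did not fall in libraries labelled Δ/Δ, with 31.2, 37.6 and 34.1 CPM against 35.5, 32.8 and 35.6 CPM in wt/wt at week 1, 48.6, 46.0 and 43.5 against 39.5, 33.3 and 32.6 CPM at week 4, and 31.2, 19.4 and 32.6 against 24.4, 29.3 and 35.5 CPM in sorted cells. The count includes reads from exons outside a deleted part, so it is a weak check, and the libraries are called "labelled Δ/Δ" throughout. The study itself reports significantly less Pot1a mRNA by qPCR in the cultured cells, and a band of the deleted allele. It also reports lower Pot1a by qPCR in sorted tdTomato+ cells. The stromal genes Pdgfra and Itgav (CD51) were detected in all 18 libraries. Among sorted libraries, wt/Δ replicate 2 and Δ/Δ replicate 3 held 1684 and 921 CPM of 8 megakaryocyte markers, against 17.6 to 27.2 CPM in the other 4. The 7 osteoclast markers reached 2075 to 7106 CPM in sorted libraries. Y-linked genes were found in wt/Δ replicates 1 and 3 alone, so sex and group are partly confounded there. In bulk RNA, fewer cells of a type and less RNA per cell cannot be told apart.

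In wt/wt cells the 8 members with enough counts to test rose between week 1 and week 4. Levels are CPM of each library's total count, and libraries are listed as replicates 1, 2 and 3. Bglap stood at 0.615, 0.265 and 0.372 CPM at week 1 and at 10.5, 9.12 and 7.995 CPM at week 4. Bglap2 stood at 0.246, 0.0757 and 0.149 CPM and then at 4.68, 5.44 and 4.57 CPM. Bglap3 stood at 0.215, 0.114 and 0.149 CPM and then at 7.26, 8.14 and 6.63 CPM. For each of the 3 genes every week 4 library lay above every week 1 library, as for 22.3% of all genes tested. The week 1 values rest on 2 to 20 reads per library. Tested with edgeR (quasi-likelihood, p adjusted over all genes by Benjamini-Hochberg), the log2 fold changes were 4.40 (SE 0.36, adjusted p = 2.11e-06) for Bglap, 4.88 (SE 0.34, adjusted p = 5.75e-07) for Bglap2 and 5.45 (SE 0.29, adjusted p = 1.14e-07) for Bglap3. Their summed level rose from 0.734 ± 0.316 to 21.5 ± 1.96 CPM (SD, n = 3 each).

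**Figure D1:**
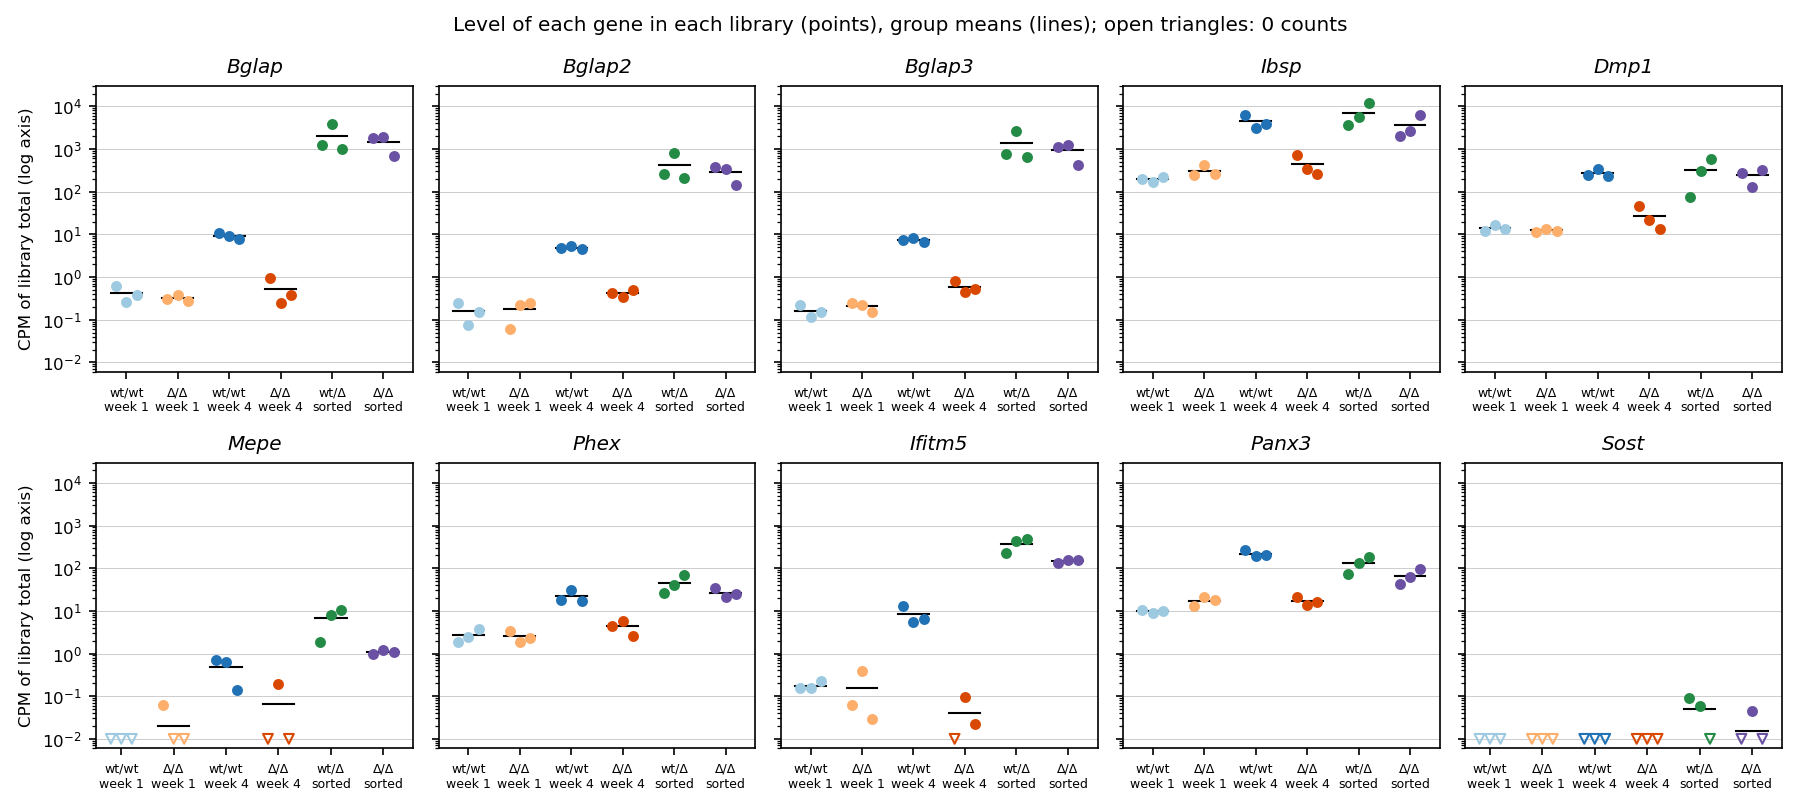
Level of the 10 genes in each of the 18 libraries, in CPM of the library total on a log axis (1 point per library, lines for group means, open triangles at the bottom for libraries with 0 counts). The 3 wt/wt libraries of week 4 stand above those of week 1 for every gene but Sost (as for 22.3% of all genes tested), the osteocalcin genes and Ifitm5 are far higher in sorted cells than in any culture, and Sost is at 0 in all 12 cultured libraries.

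Ibsp, Dmp1 and Mepe are neighbours on chromosome 5 and encode acidic matrix proteins of mineralised tissue. Ibsp (bone sialoprotein, which binds hydroxyapatite and integrins) was the most abundant member, at 197, 168 and 226 CPM in wt/wt at week 1 and 6301, 3174 and 3913 CPM at week 4. Dmp1, which osteocytes need for mineralisation and phosphate balance, stood at 12.3, 16.8 and 13.4 CPM and then at 242, 338 and 228 CPM. The 2 genes rose to a like degree, with log2 fold changes of 4.47 (SE 0.40) and 4.23 (SE 0.39) and edgeR adjusted p of 4.16e-06 and 4.62e-06. Mepe, a matrix phosphoglycoprotein of osteocytes, had no count in the 3 libraries of week 1 and 9, 14 and 4 counts at week 4. It did not pass the filter on low counts and was not tested. Its week 4 mean of 0.487 CPM was 13.9-fold the level that 3 counts over the week 1 group would give.

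Phex encodes an endopeptidase of osteoblasts and osteocytes whose loss causes phosphate wasting. It had the smallest rise of the tested members, from 1.81, 2.50 and 3.79 CPM to 17.9, 30.4 and 17.0 CPM (log2 fold change 2.99, SE 0.38, edgeR adjusted p = 6.55e-05). Ifitm5, a membrane protein confined to osteoblasts that is mutated in a form of brittle bone disease, went from 5, 4 and 6 counts at week 1 to 169, 122 and 186 counts at week 4. In CPM these are 0.154, 0.151 and 0.223 against 13.2, 5.399 and 6.49, with a log2 fold change of 5.49 (SE 0.55, edgeR adjusted p = 9.30e-06). Panx3, a channel protein of osteoblasts and chondrocytes, rose from 10.4, 8.82 and 10.0 CPM to 262, 191 and 203 CPM, with the tightest estimate of the set (log2 fold change 4.46, SE 0.21, edgeR adjusted p = 7.80e-08). Sost, the sclerostin gene and the classical mark of the mature osteocyte, had 0 counts in each of the 12 cultured libraries, where 3 counts over a group would be 0.0216 to 0.0468 CPM.

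In all, 8 of the 10 members were tested in culture and the 8 were called higher at week 4 in wt/wt, where 17.9% of the 13169 genes tested were called higher. Ibsp, Dmp1, Phex and Panx3 had at least 34 counts in every cultured library. Bglap, Bglap2, Bglap3 and Ifitm5 reached 10 counts in 7, 5, 5 and 3 of the 12 libraries and entered the test mainly through week 4 wt/wt, where they are high, so their share of calls is no measure of the set. The summed chondrocyte markers moved the other way, from 5672 to 7642 CPM at week 1 to 1293 to 3466 CPM at week 4 in wt/wt. Most of that sum was Col2a1, while Acan stayed at 0.0885 CPM or less and 1 to 4 of the 10 markers were at 0. In libraries labelled Δ/Δ the same sum went from 7346 to 7986 CPM to 1754 to 2387 CPM. The part of this change in the members' levels was not tested.

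The same interval brought much smaller changes in the libraries labelled Δ/Δ. Bglap3 stood at 0.242, 0.220 and 0.150 CPM at week 1 and 0.823, 0.442 and 0.529 CPM at week 4, a log2 fold change of 1.57 (SE 0.35, edgeR adjusted p = 0.00388). Dmp1 stood at 11.6, 13.3 and 12.1 CPM and then at 46.4, 21.9 and 13.4 CPM (log2 fold change 1.11, SE 0.35, edgeR adjusted p = 0.0281). Its week 4 libraries lay above those of week 1, as for 26.8% of all genes tested, but replicate 3 did so by little, and the call was lost when any of 4 libraries was left out (0.50, edgeR adjusted p = 0.146, without week 4 replicate 1). Bglap2, at 0.0606, 0.220 and 0.2399 CPM and then 0.429, 0.344 and 0.496 CPM, had a log2 fold change of 1.19 (SE 0.41, edgeR adjusted p = 0.0390). This call was lost in 10 of 14 alternatives, with adjusted p up to 0.220.

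These 3 genes were the members called, where 18.8% of all genes tested were called higher over time in the libraries labelled Δ/Δ. Bglap was at 0.303, 0.384 and 0.270 CPM and then at 0.930, 0.245 and 0.386 CPM, which overlap (log2 fold change 0.67, SE 0.47, edgeR adjusted p = 0.292). With the counts of the 3 osteocalcin genes summed, the log2 fold change was 1.13 (edgeR adjusted p = 0.0148). Ibsp was at 242, 415 and 265 CPM and then at 718, 342 and 256 CPM, so that 1 library of week 4 stood above the rest and the other 2 did not (log2 fold change 0.49, SE 0.35, edgeR adjusted p = 0.305, and -0.04 without that library). Panx3 was at 13.1, 21.2 and 17.9 CPM and then at 21.2, 13.6 and 16.4 CPM (log2 fold change -0.050, SE 0.19, approximate 95% interval -0.42 to 0.32, edgeR adjusted p = 0.862). Its interval leaves out the log2 change of 4.46 seen in wt/wt.

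Phex, at 3.46, 1.87 and 2.28 CPM and then 4.47, 5.79 and 2.63 CPM, was not called (log2 fold change 0.72, SE 0.38, edgeR adjusted p = 0.169). Ifitm5 was the only tested member besides Panx3 whose estimate was negative, with 1, 7 and 1 counts at week 1 and 0, 2 and 2 counts at week 4 (log2 fold change -2.10, SE 1.13, edgeR adjusted p = 0.173). Counts this low do not show a direction. Mepe had 1 count in the 3 libraries of week 1 and 4 counts, all in replicate 2, at week 4.

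**Figure D2:**
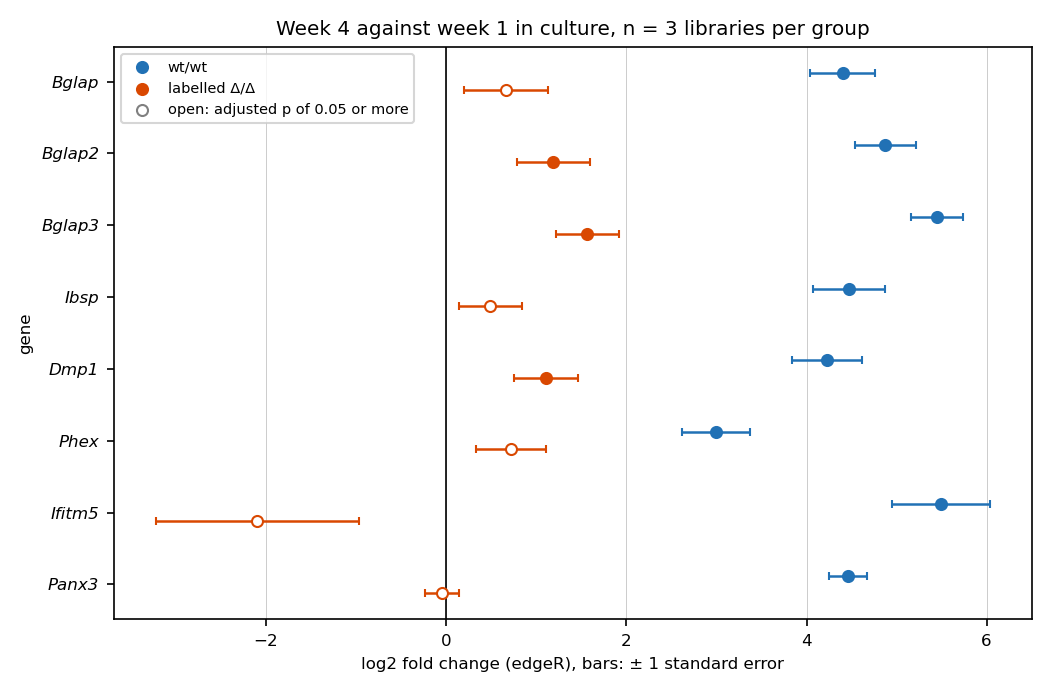
Log2 fold change of week 4 against week 1 (edgeR, bars of 1 standard error) for the 8 members tested, in wt/wt (blue) and in libraries labelled Δ/Δ (orange), with 3 libraries per group and open points for an adjusted p of 0.05 or more. The wt/wt estimates lie between 2.99 and 5.49, and those labelled Δ/Δ between -2.10 and 1.57.

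At week 1 the 2 genotypes did not differ in any member by the test. Of the 8 members tested none was called, where 0.752% of genes were called higher and 0.266% lower in the libraries labelled Δ/Δ, and 1 member, Panx3, had an unadjusted p under 0.05. Panx3 was higher in each of the 3 libraries labelled Δ/Δ (13.1, 21.2 and 17.9 CPM) than in any of wt/wt (10.4, 8.82 and 10.0 CPM), with a log2 fold change of 0.84 (SE 0.19, edgeR adjusted p = 0.0638). DESeq2 called it (adjusted p = 0.00544), as did 3 other alternatives of 15. Ibsp likewise did not overlap (242 to 415 against 168 to 226 CPM), but its log2 fold change of 0.64 (SE 0.35) had an edgeR adjusted p of 0.537. Of genes tested, 11.6% had groups that did not overlap in this direction. For Dmp1 the log2 fold change was -0.20 (SE 0.35, approximate 95% interval -0.90 to 0.49), and those of the osteocalcin genes, Ifitm5 and Phex ran from -0.44 to 0.25.

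At week 4 each tested member was lower in the libraries labelled Δ/Δ than in wt/wt, with no overlap between the groups, as for 11.3% of all genes tested in this direction. The wt/wt libraries of week 4 also serve in the comparison over time, so the results of the 2 comparisons are not independent. Ifitm5 stood furthest apart, with 169, 122 and 186 counts in wt/wt against 0, 2 and 2 counts, a log2 fold change of -7.94 (SE 0.67, edgeR adjusted p = 6.24e-06) whose size rests on 4 reads and became -8.66 without Δ/Δ replicate 2. Only 7 of the 13169 genes tested had a lower estimate. The osteocalcin genes summed to 22.5, 22.7 and 19.2 CPM in wt/wt and to 2.18, 1.03 and 1.41 CPM in those labelled Δ/Δ, and the log2 fold change was -4.17 (SE 0.35) for Bglap, -3.47 (SE 0.28) for Bglap2 and -3.63 (SE 0.24) for Bglap3. In ratio to Ibsp the same sum did not separate the genotypes, at 0.00357, 0.00715 and 0.00491 in wt/wt against 0.00304, 0.00301 and 0.00552 in those labelled Δ/Δ.

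Transcripts of the matrix proteins and the channel were lower by about an order of magnitude, against wt/wt levels that had risen since week 1. Ibsp was at 6301, 3174 and 3913 CPM in wt/wt and at 718, 342 and 256 CPM in the libraries labelled Δ/Δ, 10.2-fold lower by the fit. Dmp1 was 10.0-fold lower (228 to 338 against 13.4 to 46.4 CPM), with a log2 fold change of -3.32 that became -3.95 without Δ/Δ replicate 1, and Panx3 was 12.8-fold lower (191 to 262 against 13.6 to 21.2 CPM). Phex changed least, at 17.0 to 30.4 against 2.63 to 5.79 CPM (log2 fold change -2.39, SE 0.36, edgeR adjusted p = 6.27e-04). The 8 members tested were thus called lower, where 6.46% of all genes were lower and 9.20% higher, and 4 of them (Ibsp, Dmp1, Phex and Panx3) do not depend on the filter for low counts. Mepe, not tested, had 9, 14 and 4 counts against 0, 4 and 0, and its ranges overlapped in CPM (0.140 to 0.703 against 0 to 0.196).

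None of these 8 calls was lost in any of 14 or 15 alternatives, with edgeR or DESeq2 adjusted p at most 0.00463. Among other cell type lists at week 4, the 7 stromal markers summed to 7447 to 9402 CPM in wt/wt and to 14454 to 18303 CPM in the libraries labelled Δ/Δ, with the 7 detected and most of the sum from Cxcl12. The 5 adipocyte markers summed to 26.6 to 44.97 CPM against 88.1 to 127 CPM. The 7 osteoclast markers summed to 100.8 to 112 against 152 to 176 CPM, nearly all of it Ctsk, with Mmp9 at 0.215 CPM or less and Dcstamp at 0.0110 CPM or less in both and 1 to 4 of the 7 at 0. Whether these differences play a part in the members' levels was not tested.

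The difference between the genotypes itself changed with time. Tested as an interaction, the genotype effect at week 4 minus that at week 1 ran from -2.27 (Phex, SE 0.53, edgeR adjusted p = 0.0204) to -7.59 (Ifitm5, SE 1.40, edgeR adjusted p = 0.00509) on the log2 scale, where 3.08% of all genes were called lower and 4.08% higher. Each tested member was called lower, but of these only Ibsp, Dmp1, Phex and Panx3 had 10 counts or more in every library, and the osteocalcin genes and Ifitm5 entered the test mainly through week 4 wt/wt. Panx3 had the firmest value, -4.51 (SE 0.28, edgeR adjusted p = 3.33e-06), made up of 0.84 at week 1 and -3.67 at week 4. Ibsp followed with -3.98 (SE 0.51), and Dmp1 had -3.12 (SE 0.50), or -3.74 without week 4 Δ/Δ replicate 1. The call of Ifitm5 was lost without week 1 Δ/Δ replicate 2, which held 7 of its 9 reads (-5.94, edgeR adjusted p = 0.140), and with counts thinned to the lowest total (-5.97, edgeR adjusted p = 0.127). The call of Phex was lost without week 1 Δ/Δ replicate 1 (-2.03, edgeR adjusted p = 0.0570).

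**Figure D3:**
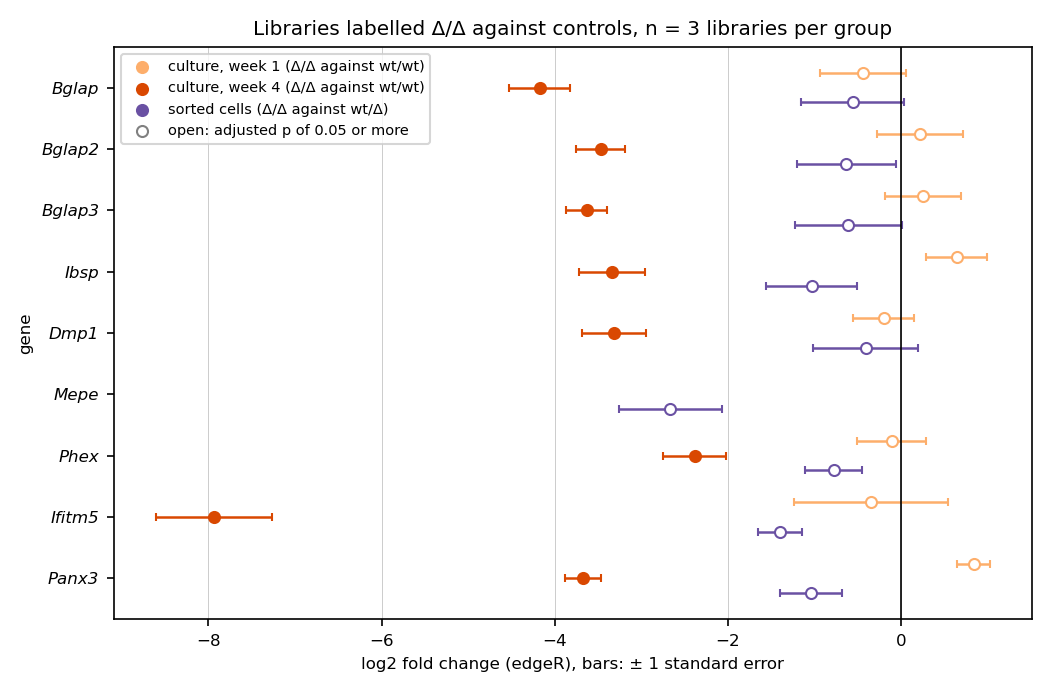
Log2 fold change of libraries labelled Δ/Δ against their controls (edgeR, bars of 1 standard error) in culture at week 1, in culture at week 4 and in sorted cells, with open points for an adjusted p of 0.05 or more. The week 4 estimates lie between -7.94 and -2.39, those of week 1 between -0.44 and 0.84, and those of sorted cells between -2.67 and -0.41 with none past the test.

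Freshly sorted cells answer a second question, namely how these genes stand in tdTomato+ cells of young mice in which bone is growing. The estimate was below 0 for the 9 members tested, as for 50.6% of all genes, and none was called by edgeR, which called 0% of the 14605 genes tested in either direction (1792 had an unadjusted p under 0.05), while DESeq2 called 1.05% higher and 2.45% lower of the 11681 genes it adjusted. The members with the least overlap were Ifitm5 and Mepe. Ifitm5 was at 222, 422 and 473 CPM in wt/Δ and 132, 153 and 157 CPM in the libraries labelled Δ/Δ (log2 fold change -1.40, SE 0.25, unadjusted p = 6.08e-04 and adjusted p = 0.2403 by edgeR). Mepe was at 1.83, 8.12 and 10.3 CPM and 0.975, 1.19 and 1.10 CPM, from 80, 406 and 297 counts and 44, 52 and 37 counts (log2 fold change -2.67, SE 0.60, edgeR adjusted p = 0.242). No library labelled Δ/Δ reached the lowest of wt/Δ for either gene, where 8.35% of genes tested had such groups.

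DESeq2 called both lower, with adjusted p of 2.42e-04 for Ifitm5 and 0.00135 for Mepe. No edgeR alternative called either, and over the 16 alternatives their estimates ran from -1.64 to -1.24 and from -3.11 to -2.28. Without the 2 libraries rich in megakaryocyte markers they were -1.32 and -2.48, and with sex as a covariate they were -1.59 and -2.97, both alternatives chosen after seeing the data.

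Panx3, Phex and Ibsp overlapped between the groups of sorted cells. Panx3 was at 72.7, 134 and 186 CPM in wt/Δ and 41.7, 63.2 and 93.9 CPM in those labelled Δ/Δ (log2 fold change -1.04, SE 0.36, edgeR adjusted p = 0.318). Phex was at 26.1, 39.5 and 67.7 CPM and 34.9, 21.1 and 24.2 CPM (log2 fold change -0.78, SE 0.33, edgeR adjusted p = 0.399). Ibsp spread widely within each group, at 3587, 5569 and 12279.8 CPM and 1992, 2711 and 6176 CPM (log2 fold change -1.04, SE 0.53, edgeR adjusted p = 0.481, and -1.63 to -0.46 on leaving out 1 library, with -1.63 without Δ/Δ replicate 3), and 1 library of each group, replicate 3, stood above its others. The 7 osteoclast markers summed to 4824, 3970 and 6534 CPM and 2180, 2075 and 7106 CPM in the same libraries, and were lowest in replicates 1 and 2 labelled Δ/Δ, as were Ibsp and Panx3. Without both libraries rich in megakaryocyte markers Ibsp was at -1.77, and with sex as a covariate at -0.70, alternatives chosen after seeing the data. The 5 endothelial markers, all detected, summed to 883, 909 and 1595 CPM in wt/Δ and 1596, 1516 and 1684 CPM in those labelled Δ/Δ. These sums overlapped between the groups. Of the endothelial markers Pecam1, which encodes the CD31 that the study's cytometry gated out, was at 114, 134 and 139 CPM and 209.7, 201 and 219 CPM. Its groups did not overlap, as for 11.9% of all genes tested in this direction. The part of these cell types in the members' levels was not tested.

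The osteocalcin genes and Dmp1 gave no stable direction in sorted cells. Bglap was at 1218, 3912 and 1008 CPM in wt/Δ and 1804, 1895 and 670.0 CPM in the libraries labelled Δ/Δ. Bglap2 was at 254, 809 and 206 CPM and 380.0, 336 and 143 CPM, and Bglap3 at 746, 2686 and 649 CPM and 1145, 1239.8 and 422 CPM. In each of them the highest library was wt/Δ replicate 2 and the lowest was Δ/Δ replicate 3, which are the libraries rich in megakaryocyte markers. The log2 fold changes were -0.56 (SE 0.59), -0.63 (SE 0.57) and -0.61 (SE 0.62), with edgeR adjusted p of 0.713 to 0.767. They changed sign without wt/Δ replicate 2 (0.30, 0.23 and 0.34) and without both libraries (0.66, 0.56 and 0.70). With sex as a covariate they moved the other way, to -1.49, -1.56 and -1.58 (edgeR adjusted p of 0.459 to 0.460), in a fit where wt/Δ replicate 2 is the only control of the same sex as those labelled Δ/Δ. The last 2 alternatives were chosen after seeing the data.

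Dmp1 was at 76.2, 303 and 572 CPM in wt/Δ and 277, 132 and 324 CPM in the libraries labelled Δ/Δ (log2 fold change -0.41, SE 0.61, edgeR adjusted p = 0.841), and its sign turned without wt/Δ replicate 3 (0.27). Sost was barely present, with 4, 3 and 0 counts in wt/Δ and 0, 2 and 0 counts in those labelled Δ/Δ, where 3 counts over a group are 0.0245 CPM. At that depth no difference in Sost was detectable. Its 9 reads stood against 278049 and 186917 reads of Bglap in the 2 groups, so Sost was nearly absent where Bglap was high. Other genes that osteocytes express were present. Dmp1, Phex and Mepe averaged 317, 44.4 and 6.74 CPM in wt/Δ and 245, 26.7 and 1.09 CPM in the libraries labelled Δ/Δ.

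Set beside each other, the sorted wt/Δ cells and the wt/wt cultures of week 4 did not differ by a common factor. They differ in mouse age, genotype, Cre delivery and culture at once and were not tested against each other. The mean CPM of sorted wt/Δ was 222-fold that of wt/wt at week 4 for Bglap, 86.3-fold for Bglap2, 185-fold for Bglap3 and 44.5-fold for Ifitm5. For Mepe it was 13.8-fold. The other members were close to the culture, with 1.601-fold for Ibsp, 1.18-fold for Dmp1, 2.04-fold for Phex and 0.5996-fold for Panx3. By week 4 Ibsp, Dmp1, Phex and Panx3 of wt/wt cultures were thus within a few fold of sorted cells, and osteocalcin and Ifitm5 were not. The libraries labelled Δ/Δ stood further from their sorted counterparts, at 8.27-fold for Ibsp, 8.98-fold for Dmp1, 6.22-fold for Phex, 3.87-fold for Panx3 and 2799-fold for Bglap.

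**Figure D4:**
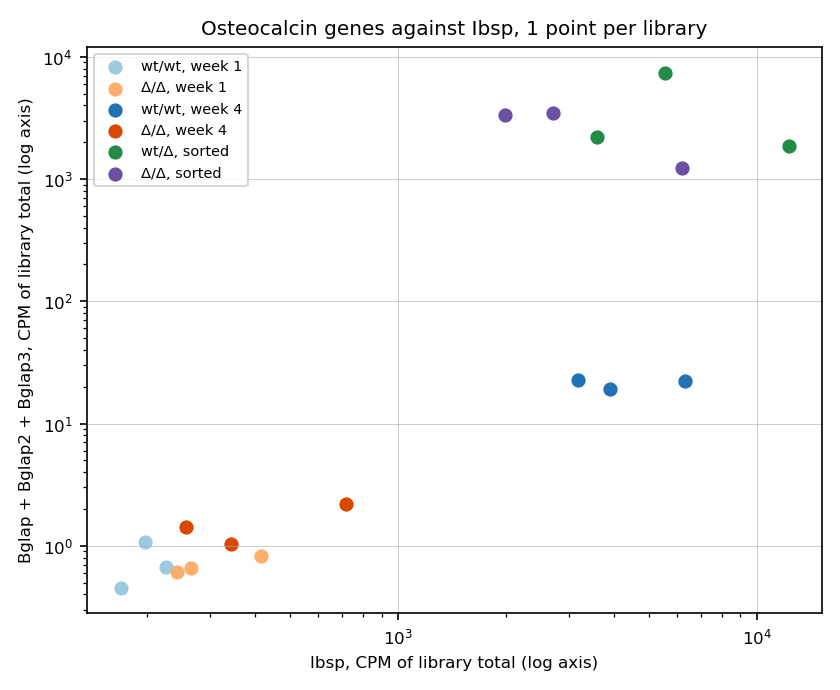
Summed CPM of Bglap, Bglap2 and Bglap3 against the CPM of Ibsp in each of the 18 libraries, both on log axes, with 1 point per library coloured by group. The cultured libraries lie along 1 band at 0.00198 to 0.00715 osteocalcin reads per Ibsp read, and the 6 sorted libraries lie far above it at 0.152 to 1.67.

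Read for read, osteocalcin was 0.00198 to 0.00715 of Ibsp in the 12 cultured libraries. In sorted cells the ratio was 0.618, 1.33 and 0.152 in wt/Δ and 1.67, 1.28 and 0.2001 in those labelled Δ/Δ, so that it ranged widely among sorted libraries and lay above every culture. The lowest ratio of each sorted group was in replicate 3, where Ibsp was highest.

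Per kilobase of annotated exon, Ibsp led in wt/wt at week 4 with 2158 ± 790.3 CPM per kb (SD, n = 3), followed by Dmp1 (97.3), Panx3 (63.6) and then Bglap (14.9), Ifitm5 (10.9) and Bglap2 (10.4), whose libraries overlapped. Phex (3.46) and Bglap3 (2.79) overlapped below them, Mepe was at 0.290 and Sost at 0. In sorted wt/Δ cells, Ibsp (3455 ± 2203) and Bglap (3311 ± 2621) could not be told apart by their spread. Bglap2 (898), Bglap3 (517) and Ifitm5 (487) followed, each overlapping its neighbour in the order, and Dmp1 (115), Panx3 (38.2), Phex (7.06), Mepe (4.01) and Sost (0.0244) came after. Ifitm5 thus stood above Dmp1 and Panx3 in the order of sorted cells and below both in culture. The exonic length of Bglap3 (2629 bases) includes alternative first exons, which lowers its value per kb against Bglap (618 bases) and Bglap2 (471 bases).

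The split of osteocalcin reads among the 3 genes varied little among sorted libraries and was not the same in culture. Bglap held 52.8% to 54.9% of them in the 6 sorted libraries, Bglap2 9.68% to 11.6% and Bglap3 33.6% to 36.3%. In wt/wt at week 4 Bglap2 held more, with 20.8% (95% Wilson interval 16.5 to 25.9%), 24.0% (20.5 to 27.9%) and 23.8% (20.4 to 27.6%), and Bglap held 46.9%, 40.2% and 41.6%. The Bglap2 share of week 4 libraries labelled Δ/Δ was 19.7% (11.6 to 31.3%), 33.3% (17.2 to 54.6%) and 35.2% (27.4 to 43.8%) of 61, 21 and 128 reads. The intervals cover counting error only. Bglap3 took 32.3% to 35.9% in wt/wt at week 4, a range that overlaps that of sorted cells. Its share was 37.7%, 42.9% and 37.5% in week 4 libraries labelled Δ/Δ and at most 25.0% in wt/wt at week 1, the latter from 12 to 35 reads, so the split was not fixed among cultures either.

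**Figure D5:**
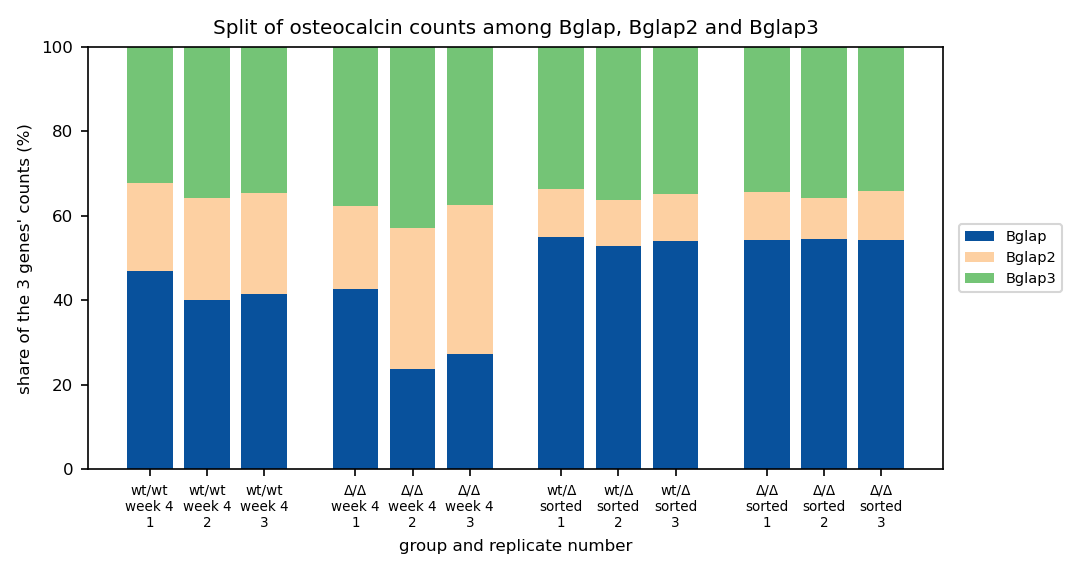
Share of the reads of the 3 osteocalcin genes held by Bglap, Bglap2 and Bglap3 (stacked bars, percent) in each library of week 4 culture and of sorted cells. The Bglap2 band is 9.68% to 11.6% in the 6 sorted libraries and 19.7% to 35.2% in the 6 cultured ones, which rest on 21 to 550 reads each.

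Across the 12 cultured libraries the 8 tested members moved together, with Pearson correlations of log2 CPM between 0.83 (Ifitm5 and Phex) and 0.98 (Ibsp and Panx3). The libraries fall into 4 groups of which 1 is high, so these values describe that step and not independent points. Across the 6 sorted libraries the picture was split. The osteocalcin genes kept to each other (0.99 or more, with shared sequence) and showed -0.33 to 0.33 with the other 6 tested members. Ibsp ran with Panx3 (0.96) and Ifitm5 with Mepe (0.99), while Dmp1 reached at most 0.68, with Phex.

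Of 11163 other genes past a mean of 1 in log2 CPM, those most like the mean profile of the 8 members over the 12 cultured libraries were Angpt4 (Pearson r = 0.98), Jak2 (0.97), Dlx4 (0.97), Sp7 (0.97), Pth1r (0.97), Adgrd1 (0.96), Ikbkg (0.96), Elmo1 (0.96), Ston2 (0.95) and Ackr3 (0.95). Sp7 encodes osterix, a transcription factor that osteoblasts need, and Pth1r the receptor of parathyroid hormone. Sp7 went from 107 to 240.2 CPM in wt/wt and from 107 to 135 CPM in libraries labelled Δ/Δ, and Pth1r from 59.5 to 443 and from 76.1 to 127 CPM.

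Other genes of bone formation were read at week 4 from 4 lists. Of 10 osteoblast transcription factors, 3 had lower and none had higher levels in libraries labelled Δ/Δ, among them Dlx3 (log2 fold change -2.62) and Sp7 (-0.84), and 7 with Runx2 among them were not called. Over all genes 6.46% were called lower and 9.20% higher. Of 16 genes of the earlier bone matrix and its mineralisation, 8 were lower and 1 higher. The lower ones were Phospho1 (-2.71) and Smpd3 (-2.49), which supply phosphate and act in mineral formation, Pth1r (-1.81), Col1a1 (-1.40) and Col1a2 (-0.82) of type I collagen, Alpl (-0.98), the alkaline phosphatase, Spp1 (-0.72), osteopontin, and Fkbp10 (-0.55), a collagen chaperone. The collagenase gene Mmp13 was higher (0.96). The medians of these lists were -0.48 and -0.53 against -3.55 over the 8 tested members and 0.00 over all genes tested. Of the members, the osteocalcin genes and Ifitm5 entered the test mainly through week 4 wt/wt, where they are high. The members' median is therefore no measure of the set. Ibsp, Dmp1, Phex and Panx3, which do not depend on the filter for low counts, were at -3.34, -3.32, -2.39 and -3.67.

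Of 8 further osteocyte genes 5 were tested and 3 were lower, Mef2c (-2.25), Pdpn (-1.07) and Irx5 (-0.71). Mef2c encodes a factor that acts on the Sost enhancer, and Pdpn a membrane protein of early osteocytes. Of 12 partners of the members' products, such as the enzymes Ggcx and Vkorc1 that act in the carboxylation of osteocalcin, 9 were tested. Of these 1, Fkbp11 (-0.83), was lower, a share near that of all genes. In sorted cells no gene of these 4 lists was called by edgeR, and their median log2 fold changes were -0.18, -0.16, -0.38 and -0.19 in the order given. Over time in wt/wt, 5 of the 10 transcription factors rose, with Dlx3 (3.03) and Sp7 (1.15) among them, and 8 of the 16 matrix genes rose, led by Pth1r (2.88), Phospho1 (2.71), Smpd3 (2.66) and Alpl (2.54), while Ank (-1.28) and Serpinf1 (-0.52) fell. Over all genes 17.9% were called higher and 16.1% lower in that comparison.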

How the data were processed

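Per the submitters' processing notes, HISAT2 2.0.4 with mm10 and featureCounts 1.6.3 were used by the authors, and the deposited counts per gene symbol are whole numbers with no normalization. The cDNA kit keeps no strand. CPM were computed from library totals. The tests used edgeR 4.0.16 (R 4.3.3), with filterByExpr (min.count 10), TMM scaling, quasi-likelihood fits and Benjamini-Hochberg adjusted p under 0.05 as the call, with the 12 cultured libraries in 1 fit and the 6 sorted libraries in another. Groups followed the sample titles. The study gives 3 mice per group for both experiments, and the labels do not tie a library to a mouse. The spread between libraries exceeded counting error (10.8 to 376 as chi-squared over its degrees of freedom). Approximate intervals came from the standard error.

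The members and gene lists were chosen with earlier results of these data known. Named are the 10 members, Pot1a, listed genes past the test (Runx2 was added after its values were seen) and the 10 genes most like the members, and 1 listed gene past the test is not reported here. Libraries with the same number deviated together from their group means in wt/wt over time (0.152, 0.220 and 0.209), so a block within each genotype was fitted as an added alternative. In no other comparison did every same-numbered pair pass 0.1, although 2 of the 3 pairs of wt/wt and Δ/Δ at week 4 did (0.636, 0.226 and -0.083), and there the block is given as an alternative. Other alternatives were RLE or library-size scaling, no filter, a strict filter of 10 counts in each library, a replicate block, DESeq2 1.42.0, fits of only the libraries compared, thinned counts, summed osteocalcin counts and leaving out each library. Fits without the 2 megakaryocyte-rich sorted libraries, and with sex as a covariate, were added after seeing the data. For correlations, log2 CPM had a prior count of 2. The fit was tested on simulated data.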

Additional observations from a re-analysis of the deposited data

Results flagged for a closer look

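The effect of genotype differed between week 4 and week 1 for each of the 8 members tested in culture. As the difference of the log2 fold changes (edgeR interaction, n = 3 libraries per group), it was -3.73 for Bglap, -3.69 for Bglap2, -3.88 for Bglap3, -3.98 for Ibsp, -3.12 for Dmp1, -7.59 for Ifitm5, -2.27 for Phex and -4.51 for Panx3. Over all genes 3.08% were called lower and 4.08% higher in this test. The osteocalcin genes and Ifitm5 entered it mainly through week 4 wt/wt, where they are high. The call of Ifitm5 and that of Phex were each lost without 1 library of week 1, and that of Ifitm5 also with thinned counts. Ibsp and Panx3 were flagged for another reason. At week 1 in culture every library labelled Δ/Δ lay above every wt/wt library, as for 11.6% of all genes tested. Neither was called there (log2 fold changes 0.64 and 0.84, edgeR adjusted p = 0.537 and 0.0638). In sorted cells every library labelled Δ/Δ lay below the mean of wt/Δ for both genes. That difference between culture and sorted cells was not tested, and the genotypes overlapped in sorted cells for both genes.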

How the results depend on the processing

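Over time in wt/wt and between genotypes at week 4, the 8 tested members kept direction and call under each alternative that could test them. With at least 10 counts in every library only Ibsp, Dmp1, Phex and Panx3 could be tested, which gave 4, 4 and 4 calls (time in wt/wt, genotype at week 4, interaction) and 1 over time in libraries labelled Δ/Δ. Leaving out 1 library gave 8 to 9 calls over time in wt/wt, 1 to 3 in libraries labelled Δ/Δ, 0 to 1 for genotype at week 1, 8 to 9 at week 4 and 7 to 8 for the interaction. At week 1 no filter, DESeq2 and a fit of the 6 libraries each called 1 member higher (Panx3). In sorted cells DESeq2 called 2 lower. The replicate block, and the block within each genotype over time, lost the call of Bglap2 in libraries labelled Δ/Δ (1.19, edgeR adjusted p = 0.062 and 0.0835) and changed no other call of a member.

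Signs turned, all without a call, when 1 library was left out. Over time in libraries labelled Δ/Δ the range was -0.042 to 0.76 for Ibsp and -0.21 to 0.11 for Panx3. At week 1 it was -0.18 to 0.69 for Bglap2, -2.01 to 0.37 for Ifitm5 and -0.37 to 0.23 for Phex, and Bglap2 and Bglap3 also turned with the 3 osteocalcin counts summed (-0.10). In sorted cells it was -0.91 to 0.30 for Bglap, -0.98 to 0.23 for Bglap2, -0.96 to 0.34 for Bglap3 and -0.87 to 0.27 for Dmp1, and the osteocalcin genes turned without both libraries rich in megakaryocyte markers (0.66, 0.56 and 0.70). The cause was not tested.

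Pot1a was higher at week 4 by 0.39 (edgeR adjusted p = 0.0298), a call lost with no filter (0.39), the replicate block (0.39), the 6 libraries alone (0.37) and thinned counts (0.38), and in 4 of 6 fits that left out 1 library (0.34 to 0.45 over the 6). At week 1 it was -0.015, and -0.084 to 0.046 without 1 library. In sorted cells it was -0.17, and -0.28 to 0.014.

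Over all genes at week 1 the 99 higher and 35 lower calls became 274 and 166 with DESeq2, 132 and 60 with no filter, 167 and 70 in the fit of 6 libraries, 65 and 20 with at least 10 counts everywhere, 54 and 23 with thinned counts and as few as 30 and 15 without 1 library. At week 4 the 1211 and 851 calls became 759 and 508 in the fit of 6 libraries. In sorted cells 0 became 123 and 286 with DESeq2, and 1 and 3 without wt/Δ replicate 2. Depth limits Sost, Mepe and Ifitm5 in culture, where a group holds 0, 0 to 27 and 4 to 477 of their reads.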
